A study of Brassica napus and Orychophragmus violaceus with 4 samples.

Results

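The petals of the red-flowered addition line M4 were compared with those of its yellow-flowered parent H3, gene by gene, over the genes of *Brassica rapa* to which the reads had been aligned. M4 is *B. napus* (oilseed rape) with a pair of added chromosomes of *Orychophragmus violaceus*, a purple-flowered crucifer, and it has red colour on yellow petals. H3 is the *B. napus* cultivar Huashuang 3, which carries the same *B. napus* chromosomes without the added pair. Petals of *O. violaceus* itself, purple (OvP) and white (OvW), are also in the series and were used here as a separate readout. All plants were grown in the greenhouse, and petals were taken from half-open flowers. Each material gave 1 library, M4 is a single addition line, and the sources used here do not give the number of plants behind a library. No difference therefore has a replicate check, and the addition of the chromosomes cannot be told apart from any other difference between the M4 and H3 plants or their handling. The members are the 25546 genes with 10 or more reads over M4 and H3, of 37441 genes in the sheet of reads.

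A petal at the half-open stage is close to the end of its growth. Its cells stop dividing and expand, its surface is sealed with cutin and wax, and its plastids lose much of the photosynthetic apparatus that young petals hold. *Brassica* genomes descend from a triplicated ancestor, so an Arabidopsis gene often has several *B. rapa* counterparts, called copies here when they carry the same Arabidopsis locus in the sheet. Each *B. rapa* gene stands for those reads of its counterparts, in both *B. napus* subgenomes and on the added chromosomes, that mapped to it. Per the study, part of the M4 and H3 reads and most OvP and OvW reads did not map to *B. rapa*. Transcripts of the added chromosomes in particular can therefore be missing from the counts. Reads shared by near-identical copies could also be split in ways the sheet does not show.

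Genes held 15507389 reads in M4 and 16447021 in H3. The M4 column of the read sheet carries only a code, and it was checked against the M4 level per kilobase (RPKM): over 14978 genes with 50 or more reads in both libraries, the M4 to H3 ratio of RPKM divided by that of the reads centred on 1.05 (median), with 95% of genes between 1.04 and 1.06. Reads were scaled by TMM, a trimmed mean of ratios, and folds are M4 over H3. A gene was called higher or lower when the exact binomial test of edgeR gave p at 0.01 or under and the fold was 2 or more, or 0.5 or less. That test holds counting error only and compares these libraries, not the plant lines. Intervals in brackets are 95% exact binomial (Clopper-Pearson) intervals of the fold, again of counting error only. A count of 0 was set to a floor of 3 reads in a library, which gives folds written as "at least".

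The change between the petals was broad and ran in both directions. Of the 25546 genes, 5477 were called higher in M4 and 4323 lower, so that 38.4% were called, 21.4% higher and 16.9% lower. These shares are the background for the counts of genes that follow. The median log2 fold over all genes was 0.04, with quartiles of -0.73 and 0.96, and the same median was 0.43 when reads were scaled to the library totals. With that scaling 7703 genes were called higher and 2709 lower, so directions are relative to the TMM median. With an assumed biological coefficient of variation (BCV) of 0.4 in place of none, 2465 of the calls held.

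**Figure D1:**
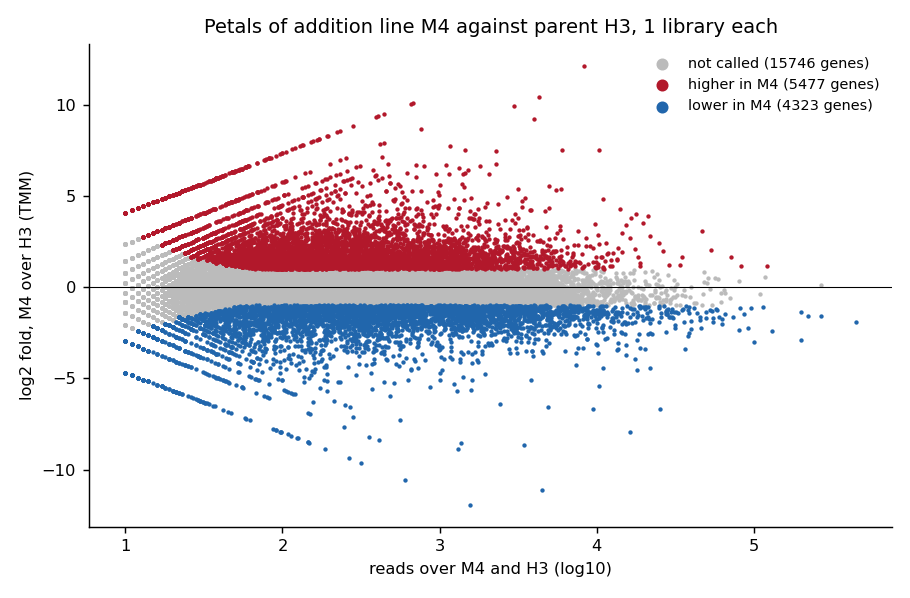
Log2 fold of M4 over H3 (y axis, TMM-scaled) against the log10 of the reads over both libraries (x axis) for each of the 25546 genes, with genes called higher in M4 in red (5477), lower in blue (4323) and not called in grey. Genes were called on both sides of 0 from low to high read numbers.

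The libraries held the genes that define petals, and few reads of reproductive organs. The class B genes, which specify petals and stamens together, were read in both, and none of their tested copies was called. The *PISTILLATA* copy Bra006549 had 21088 reads in M4 against 33172 in H3 (fold 0.513, near the cut of 0.5). Its other copies had folds of 0.96 and 1.88. The *APETALA3* copy Bra014822 had 9578 reads in M4 against 6166 in H3 (fold 1.25). Its other copy had 8216 in M4 against 10842 in H3 (fold 0.611). Of 35 genes in a list of anther and pollen markers, 13 were tested, none was called higher and 3 were called lower, and their summed level was 16.51 RPKM in M4 and 23.01 in H3. In that list 10 genes were at 0 reads in M4, 9 in H3 and 5 in both. Carpel markers summed to 28.18 RPKM in M4 and 29.45 in H3 over 11 tested genes of 21, with 2 called higher and 1 lower, and 4 of the 21 were at 0 in M4 against 8 in H3. Guard cell markers summed to 44.55 RPKM in M4 and 63.38 in H3 over 9 tested genes of 19, of which 5 were called lower and none higher, and 6 of the 19 were at 0 in each library. Fewer cells of a type and less RNA per cell cannot be told apart in whole petals, and the part of these cell types in the results was not tested.

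The genes with the strongest rise in M4 came from several unrelated functions. They were ranked by the bound of the interval nearest to 1, among genes with an Arabidopsis name and outside the anthocyanin and flavonoid list. Here and in the lists, values given with a gene name are those of a single *B. rapa* copy, picked for the strength of its change, and other copies often changed less or not at all. First was the *CYP81D11* copy Bra039047, a cytochrome P450 known in Arabidopsis to respond to jasmonate and to foreign chemicals, with 4260 reads in M4 against 2 in H3 (fold 1718, interval 475 to 14187). *MDP40*, a microtubule-associated protein of Arabidopsis, followed with 3969 reads in M4 against 5 in H3 (fold 640, interval 274 to 1972). *MLP423*, which encodes a protein resembling those of latex, had 10296 reads in M4 against 45 in H3 (fold 184, interval 138 to 253).

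Several of the next genes act at the cell surface or in growth. *CUS2*, a cutin synthase, had 2284 reads in M4 against 17 in H3 (fold 108, interval 67.5 to 186). *GPAT6*, which acts in the making of cutin monomers, had 790 in M4 against 6 in H3 (fold 106, interval 48.6 to 290). *LTPG1*, a membrane-anchored lipid transfer protein of the cuticle, had 701 in M4 against 5 in H3 (fold 113, interval 48.2 to 349). Other copies were well read in H3 and changed less: the second *GPAT6* copy had 3836 reads in M4 against 1380 in H3 (fold 2.24), and the other *LTPG1* copies had 943 and 217 in M4, against 235 and 134 in H3 (folds 3.24 and 1.31, the last not called). *GASA4*, a small gibberellin-regulated protein, had 1095 reads in M4 against 8 in H3, and *PAR1*, a repressor in shade responses, had 223 in M4 against 0 in H3, at least 59.9-fold higher. *HSP17.6II*, a small heat shock protein, had 283 reads in M4 against 0 in H3, at least 76.1-fold higher. *CEP3*, a cysteine endopeptidase (6014 reads in M4 against 26 in H3), *ChlAKR*, an aldo-keto reductase of the chloroplast that detoxifies aldehydes (757 and 1), and *GATA4*, a zinc finger factor (418 and 1), complete the 12 highest.

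The strongest falls in M4 included enzymes of phenylalanine and one-carbon metabolism. *CAD1*, annotated as a cinnamyl alcohol dehydrogenase, had 0 reads in M4 against 1573 in H3, at least 650.2-fold lower in M4. *HB2*, a non-symbiotic haemoglobin, had 10 reads in M4 against 3448 in H3 (fold 0.00234, interval 0.00112 to 0.00431), and its other copy had 444 in M4 against 641 in H3 and was not called. *FDH*, the mitochondrial formate dehydrogenase, had 80 reads in M4 against 16218 in H3 (fold 0.00398, interval 0.00315 to 0.00495), while its other copy had 11211 in M4 against 13544 in H3 and was not called. Phenylalanine-linked genes were among them: *ADT5*, an arogenate dehydratase of the last step to phenylalanine, had 294 reads in M4 against 10039 in H3 (fold 0.0236, interval 0.021 to 0.0265), and *CYP79A2*, which converts phenylalanine to its oxime for benzylglucosinolate in Arabidopsis, had 62 in M4 against 4868 in H3 (fold 0.0103, interval 0.00786 to 0.0132).

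Other falls lay in defence and terpene metabolism. *MLO6*, related to the powdery mildew susceptibility gene, had 3 reads in M4 against 1308 in H3. A copy of *RPP8*, an NB-LRR resistance gene, had 0 in M4 against 316 in H3, at least 130.6-fold lower in M4. *TPS14*, a linalool synthase in Arabidopsis, had 3 in M4 against 268 in H3. The others of the 12 lowest were *CYP705A2*, a P450 (112 reads in M4 against 9296 in H3), the fucosyltransferase *FUT8* (0 and 187), the poly(A) polymerase *PAPS3* (0 and 145) and *MEE47*, a gene named for embryo arrest (38 and 1550).

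To see which functions moved, the tested genes of 35 lists were counted and their median log2 fold was set beside that of all genes (0.04). The set-aside list of anthocyanin and flavonoid genes had 17 members higher and 7 lower of 47 tested, with a median of 0.55, and is not described further. The lists are descriptions of these libraries, and no list was tested as a set. With total reads the median of 8 of the 35 lists changed sign, and each of these is named with its list.

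**Figure D2:**
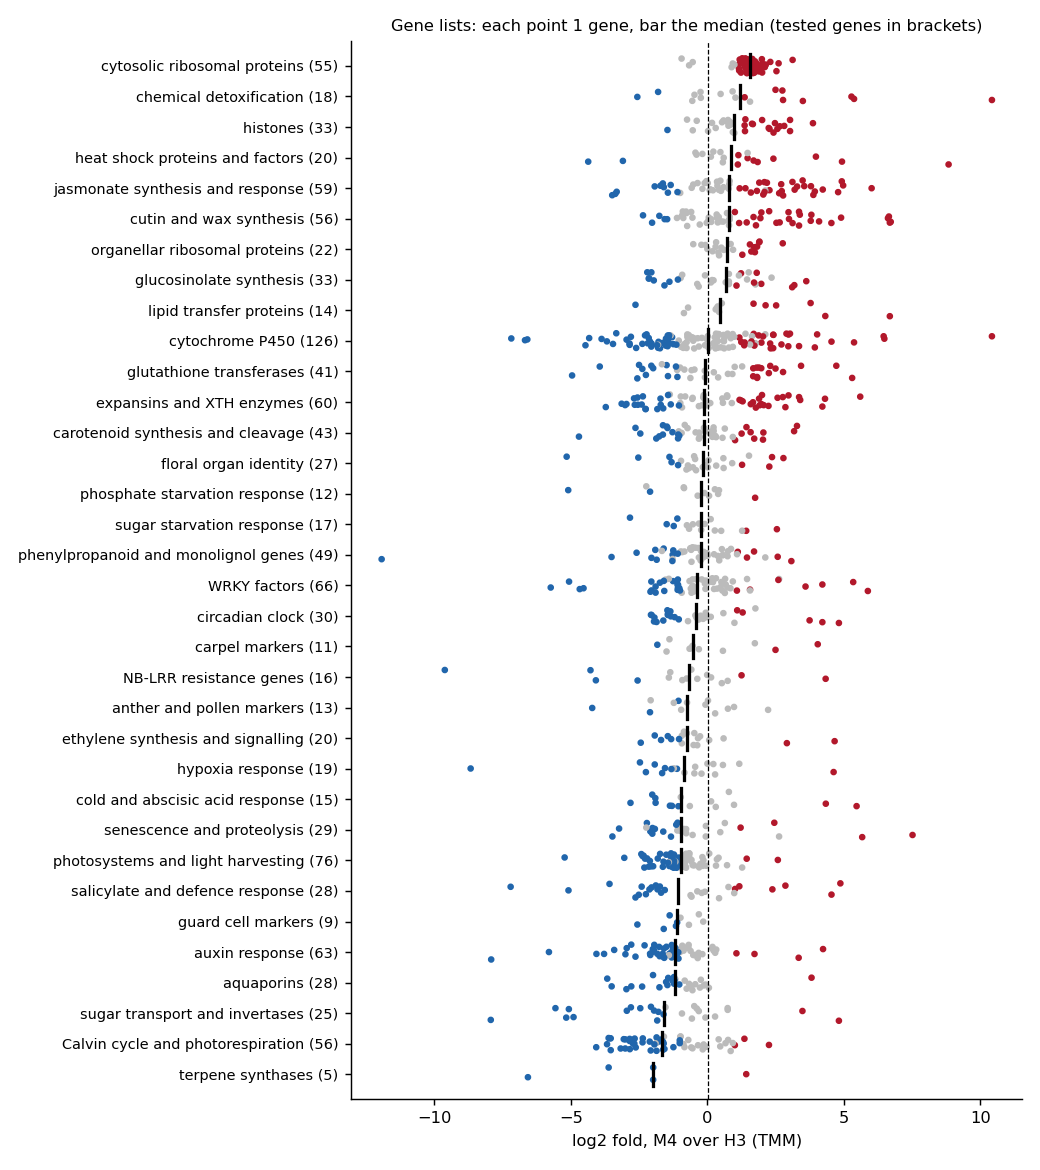
Log2 fold of M4 over H3 (x axis) for the tested genes of each list but the set-aside one (rows, ordered by median, number of tested genes in brackets), with points for genes in red (called higher in M4), blue (lower) or grey (not called), black bars for list medians and a dashed line for the median of all genes. Cytosolic ribosomal proteins lie at the top and terpene synthases at the bottom.

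Cytosolic ribosomal proteins, which build the ribosomes that translate nuclear genes, had the largest share of members called higher of the 35 lists. The 55 tested genes were matched by symbol and came from 20 Arabidopsis loci. Of the 55, 49 were called higher in M4 and none lower, with a median log2 fold of 1.56 (range -0.94 to 3.12). The strongest calls were of an *RPL18* copy (556 reads in M4 against 51 in H3, fold 8.79, interval 6.59 to 11.95), an *STV1* copy, which encodes a ribosomal protein L24 (1979 and 261, fold 6.11), and an *RPS18C* copy (647 and 105, fold 4.97). The folds were moderate, and 4 of the 49 calls held with an assumed BCV of 0.4. Ribosomal proteins of plastids and mitochondria had 9 of 22 tested genes called higher and none lower, with a median of 0.73.

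Histones, around which DNA is wound, had 16 of 33 tested genes higher and 1 lower, with a median of 0.99. Among the higher were *HTA11*, the H2A.Z variant (81 reads in M4 against 4 in H3, fold 16.3), *HTA7*, an H2A.W variant (278 and 27, fold 8.3), and *HTB2*, an H2B (197 and 19, fold 8.36). The member called lower was *HTR12*, the histone variant of centromeres, with 215 reads in M4 against 478 in H3 (fold 0.363, interval 0.307 to 0.427).

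More genes of the surface were called higher in M4 than lower. The summed level of the tested cutin and wax genes was not higher, with 4024.43 RPKM in M4 and 4475.38 in H3. Of 56 tested genes for cutin and wax synthesis, 25 were called higher and 5 lower, with a median of 0.78, and 18 of the 25 higher calls held with an assumed BCV of 0.4. Wax and cutin genes were both among the 5 lower. *CER1*, which makes alkanes together with CER3, had 15589 reads in M4 against 64369 in H3 (fold 0.195, interval 0.192 to 0.199), a *CER3* copy had 3596 in M4 against 11794 in H3 (fold 0.246), and a copy of *MYB16*, a regulator of cuticle genes, had 95 in M4 against 260 in H3 (fold 0.295). The others were *CYP77A6*, which modifies cutin monomers (567 reads in M4 against 1269 in H3), and *KCS1*, which lengthens wax fatty acids (175 and 418). Lipid transfer proteins had 6 of 14 tested genes higher and 1 lower, with a median of 0.48, and *LTP2* had 1276 reads in M4 against 51 in H3 (fold 20.2). One of 3 *LTP1* copies was called, with 15589 reads in M4 against 913 in H3 (fold 13.8, interval 12.9 to 14.7). The *LTP1* copy with the most reads had 75288 in M4 against 42041 in H3 (fold 1.44), and the third had 7106 in M4 against 4521 in H3 (fold 1.27).

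The jasmonate list, for a hormone made from membrane lipids that acts in flower opening and in wounding, had 27 of 59 tested genes higher and 10 lower, with a median of 0.80. Against that median, the summed level of the tested genes was lower in M4, with 6323.42 RPKM in M4 and 10572.9 in H3. *CORI3*, a wound-induced aminotransferase-like gene, had 1389 reads in M4 against 40 in H3 (fold 28.0, interval 20.5 to 39.4) in the 1 called of its 4 copies. The copies of *LOX2*, a plastid lipoxygenase of jasmonate synthesis, were called in opposite directions. The copy with the most reads was lower, with 10260 in M4 against 22532 in H3 (fold 0.367, interval 0.359 to 0.376), as was one with 33 in M4 against 68 in H3. The other 4 were higher, from 2289 reads in M4 against 812 in H3 (fold 2.27) and 3636 in M4 against 156 in H3 (fold 18.8) to 120 in M4 against 1 in H3 (fold 96.8, interval 17.0 to 3853). All 3 copies of *JMT*, which methylates jasmonate, were lower, with 3923, 353 and 3481 reads in M4, against 32782, 3191 and 9229 in H3 (folds 0.0965, 0.0892 and 0.304). *MYB57*, a jasmonate-dependent factor of stamens and petals, had 2095 reads in M4 against 16881 in H3 (fold 0.1, interval 0.0956 to 0.105).

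Detoxification and heat shock lists were higher in part. Of 18 tested genes that respond to foreign chemicals, 8 were higher and 2 lower, with a median of 1.197, and 3 of 4 *CYP81D11* copies rose. Beside Bra039047, they had 3110 reads in M4 against 60 in H3 (fold 41.8) and 3268 in M4 against 1022 in H3 (fold 2.58), and the fourth had 16 in M4 against 4 in H3. *KTI1*, a trypsin inhibitor, had 746 reads in M4 against 15 in H3 (fold 40.1), and *GSTF8* had 1105 in M4 against 5273 in H3 (fold 0.169). Heat shock proteins and factors had 9 of 20 tested genes higher and 2 lower, with a median of 0.86. The 3 *HSP17.6II* copies were all higher, and *HSP17.6C* had 2 reads in M4 against 41 in H3 (fold 0.0393, interval 0.00461 to 0.151), while the mitochondrial *HSP23.5* had 42 in M4 against 292 in H3.

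Carbon fixation had the lowest median of the lists with more than 5 tested genes. Of 56 tested genes of the Calvin cycle and photorespiration, 34 were lower in M4 and 3 higher, with a median of -1.65, and 19 of the 34 held with an assumed BCV of 0.4. *AGT1*, the peroxisomal aminotransferase of photorespiration, had 158 reads in M4 against 1519 in H3 in one copy (fold 0.0839, interval 0.0707 to 0.0989) and 39 in M4 against 406 in H3 in another (fold 0.0775). *HCEF1*, a plastid fructose bisphosphatase, had 132 in M4 against 1242 in H3 (fold 0.0857). The members called higher were 2 copies of *PGK1*, a phosphoglycerate kinase, with 536 and 195 reads in M4, against 90 and 61 in H3, and a copy of *GDCT*, of glycine decarboxylase, with 457 in M4 against 183 in H3.

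Photosystem and light-harvesting genes fell less steeply. Of 76 tested, 35 were lower and 2 higher, with a median of -0.98, and 5 of the 35 held with an assumed BCV of 0.4. *LHCA3*, an antenna protein of photosystem I, had 7 reads in M4 against 226 in H3 (fold 0.025, interval 0.00993 to 0.0523), *PSBR* had 648 in M4 against 4307 in H3 (fold 0.121) and *PSBO1*, of the water-splitting complex, had 801 in M4 against 3198 in H3 (fold 0.202). One of 3 *LHCB2.3* copies was higher, with 798 reads in M4 against 107 in H3 (fold 6.01, interval 4.91 to 7.43), and the others were not called.

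Genes for the transport of sugar and water were mostly lower as well. The list of sugar transport and invertases had 13 of 25 tested genes lower and 2 higher, with a median of -1.60. All of its tested genes were *SWEET*, *STP* or *SUC* transporters, and no invertase was tested. *SWEET10*, a sugar exporter, had 0 reads in M4 against 98 in H3, at least 40.5-fold lower in M4, and both higher calls were copies of *STP4*, a monosaccharide importer induced by wounding and pathogens (159 reads in M4 against 11 in H3, fold 11.7, and 17 and 0, at least 4.57-fold higher). Aquaporins had 15 of 28 lower and 1 higher, with a median of -1.19. A copy of *PIP2B* had 166 reads in M4 against 1704 in H3 (fold 0.0786, interval 0.0666 to 0.0922), and a copy of *PIP2F* had 35 in M4 against 223 in H3 (fold 0.127). The one called higher was a *PIP2D* copy, with 183 in M4 against 10 in H3 (fold 14.8), whose second copy had 1005 in M4 against 887 in H3.

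Auxin-responsive genes were mostly lower. Of 63 tested genes named *IAA*, *SAUR* or *GH3*, 36 were lower and 4 higher, with a median of -1.18. *IAA5*, a transcriptional repressor induced by auxin, had 0 reads in M4 against 97 in H3, at least 40.1-fold lower in M4. *SAUR22* had 2 reads in M4 against 112 in H3 (fold 0.0144, interval 0.00172 to 0.0532), and a *SAUR24* copy had 48 in M4 against 653 in H3 (fold 0.0593). *GH3.9* and *GH3.3*, of a family that conjugates auxin to amino acids, were called higher, with 58 and 96 reads in M4, against 2 and 23 in H3. Better-read *GH3* genes were called lower: a *GH3.17* copy had 409 in M4 against 2279 in H3 (fold 0.145), and *GH3.1* had 335 in M4 against 645 in H3 (fold 0.419).

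Defence lists had more genes called lower than higher, with strong calls in both directions. Salicylate and defence genes had 14 of 28 tested genes lower and 6 higher, with a median of -1.09. *SARD1*, a regulator of salicylate synthesis, had 54 reads in M4 against 1 in H3 (fold 43.5, interval 7.49 to 1751), and a copy of its relative *CBP60G* had 0 in M4 against 59 in H3, at least 24.4-fold lower in M4. Of the other *CBP60G* copies 2 were lower, and the one with the most reads was higher, with 353 in M4 against 126 in H3 (fold 2.26). A copy of *ICS1*, which makes the salicylate precursor, had 2 in M4 against 68 in H3 (fold 0.0237, interval 0.00282 to 0.089). Another *ICS1* copy had 70 in M4 against 167 in H3 (fold 0.338). The most-read *ICS1* copy had 161 in M4 against 194 in H3 (fold 0.669) and was not called. NB-LRR resistance genes had 4 of 16 lower and 2 higher (median -0.67), the lower ones with 3 copies of *RPP8* among them, and *TAO1* had 112 reads in M4 against 4 in H3 (fold 22.6). *WRKY* factors had 20 of 66 lower and 7 higher (median -0.39, and 0.00256 with total reads), from *WRKY36* (75 reads in M4 against 1 in H3) to *WRKY19* (6 and 121).

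Senescence and proteolysis genes had 11 of 29 lower and 4 higher (median -0.98). *SAG21*, a stress-induced protein of the LEA class, had 537 reads in M4 against 8 in H3 (fold 54.1, interval 27.3 to 126) in one copy and 1676 in M4 against 2878 in H3 (fold 0.47) in the other, and *CEP1*, a cysteine endopeptidase of dying cells, had 386 in M4 against 3472 in H3 (fold 0.0896). Cold and abscisic acid genes had 7 of 15 lower and 2 higher (median -0.97): *ERD10*, a dehydrin, had 110900 reads in M4 against 335119 in H3 (fold 0.267, interval 0.265 to 0.269), while one *RD29B* copy had 1398 in M4 against 25 in H3 (fold 45.1) and the other 357 in M4 against 1167 in H3 (fold 0.247). The hypoxia list had 8 of 19 lower and 1 higher (median -0.84): a copy of the alcohol dehydrogenase *ADH1* had 7254 reads in M4 against 18434 in H3 (fold 0.317). That list also counted both copies of *HB2*, whose response to low oxygen was not tested here. Ethylene genes had 6 of 20 lower and 2 higher (median -0.76): the receptor *ETR2* had 78 in M4 against 2 in H3 (fold 31.4, interval 8.42 to 264).

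In the remaining lists calls ran both ways. Circadian clock genes had 13 of 30 lower and 5 higher (median -0.42): a copy of the morning gene *LHY* had 2045 reads in M4 against 6778 in H3 (fold 0.243). The evening gene *PRR3* and a copy of *ELF4*, also an evening gene, had 224 and 57 in M4, against 13 and 2 in H3. The other *ELF4* copies were not called, nor was either *TOC1* copy (313 and 64 in M4, against 263 and 70 in H3). A *PRR5* copy was lower, with 13 in M4 against 27 in H3. The sources used here do not give the hour of collection. Of 5 tested terpene synthases 4 were lower and 1 higher (median -1.98), and *TPS03* had 5230 reads in M4 against 16690 in H3 (fold 0.253). Phenylpropanoid and monolignol genes had 11 of 49 lower and 5 higher (median -0.24): *PAL4*, a phenylalanine ammonia-lyase, had 2597 in M4 against 12626 in H3 (fold 0.166), and an *HCT* copy had 256 in M4 against 24 in H3 (fold 8.6). The median of the list was 0.15 with total reads.

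Carotenoid genes, which give *B. napus* petals their yellow, had 13 of 43 lower and 9 higher (median -0.12, and 0.27 with total reads). One copy of *PSY*, phytoene synthase of the entry step, had 4971 reads in M4 against 966 in H3 (fold 4.15, interval 3.87 to 4.45), but the copy with the most reads had 18997 in M4 against 13540 in H3 (fold 1.13) and was not called. *ZEP*, zeaxanthin epoxidase, had 1883 in M4 against 8331 in H3 (fold 0.182, interval 0.173 to 0.192) in the more strongly changed of 2 copies, both lower. Glucosinolate synthesis had 8 of 33 higher and 8 lower (median 0.67), with *SOT18* of the last step at 741 reads in M4 against 48 in H3 (fold 12.4) and the transporter *GTR2* at 366 in M4 against 1224 in H3 (fold 0.241). P450 genes had 28 of 126 higher and 39 lower (median 0.02), and glutathione transferases 14 of 41 higher and 12 lower (median -0.09, and 0.31 with total reads), among them *GSTF10* (147 reads in M4 against 4 in H3) and *GSTU16* (100 and 1244).

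Phosphate starvation genes had 2 of 12 lower and 1 higher (median -0.23, and 0.17 with total reads), and sugar starvation genes had 4 of 17 lower and 2 higher (median -0.24, and 0.15 with total reads). In that list *PRODH1*, proline dehydrogenase, had 634 reads in M4 against 87 in H3 in one copy (fold 5.88) and 2839 in M4 against 3309 in H3 in the most-read copy, not called, and *ASN1*, asparagine synthetase, had 69 in M4 against 399 in H3 (fold 0.139). Floral organ identity genes had 5 of 27 lower and 4 higher (median -0.17, and 0.23 with total reads). *BPE*, which limits petal cell expansion in Arabidopsis, had 19632 reads in M4 against 2294 in H3 (fold 6.9, interval 6.61 to 7.21), and *JAG*, which promotes petal growth, had 6 in M4 against 186 in H3 (fold 0.026, interval 0.00942 to 0.0577).

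The expansin and XTH list combined families that moved apart. Both act on the wall of growing cells: expansins loosen it, and XTH enzymes cut and rejoin xyloglucan. As a list, 21 of 60 tested genes were higher and 19 lower (median -0.11, and 0.29 with total reads). Of the 25 genes named *EXPA*, 16 were higher and 1 lower (median 1.67), and of the 24 named *XTH*, 2 were higher and 14 lower (median -1.53). A copy of *EXPA11* had 14194 reads in M4 against 1083 in H3 (fold 10.6, interval 9.93 to 11.3), and the most-read *XTH24* copy had 13285 in M4 against 86372 in H3 (fold 0.124, interval 0.122 to 0.126).

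Families were also formed by the letters that open the sheet's symbols, a step chosen after the data had been seen, and 234 families held at least 10 tested genes of at least 5 loci. *TIFY*, the symbols of the *JAZ* repressors of jasmonate signalling and their relatives, had the highest median, 1.995, with 18 of 28 genes higher and none lower. The most-read of those called was a *JAZ5* copy with 2808 reads in M4 against 201 in H3 (fold 11.3). The *JAZ* genes were also counted in the jasmonate list above, so the family is not a separate observation. *MCM*, the helicase subunits that open DNA for replication, had 9 of 10 higher and none lower (median 1.60), with *MCM5* at 910 reads in M4 against 234 in H3 (fold 3.14). *GAUT*, glycosyltransferases of pectin synthesis, had 10 of 17 higher and 1 lower (median 1.47), and *RABA*, small GTPases of secretion, 14 of 26 higher and 1 lower (median 1.40).

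*SWEET*, the sugar exporters, had the lowest median of the 234 families, -2.15, with 14 of 18 genes lower and none higher. Its genes were also counted in the sugar transport or senescence lists, and those of *SAUR* in the auxin list. *SAUR* had 20 of 27 lower and none higher (median -1.50), and *NRT*, nitrate transporters, 8 of 13 lower and none higher (median -1.40), with *NRT1.8* at 56 reads in M4 against 1554 in H3 (fold 0.0291). Families whose letters join unrelated genes, such as *GH*, *CAT* and *TPS*, are not described.

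The copies of an Arabidopsis locus often moved together, but many did not. Tested genes with an Arabidopsis match covered 9337 loci with 1 tested copy, 4950 with 2, 1458 with 3 and 330 with 4 or more. The share of genes called was 37.5% at loci with 1 copy, 37.7% with 2 and 40.2% with 3 or more, near the background of 38.4%. Genes without a match were called in 47.8% of 412 cases. Among the 4950 loci with 2 copies, both were higher at 477, both lower at 311 and called in opposite directions at 136. Only one of the copies was called at 1883 and none at 2143.

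When the other copy was higher in M4, 45.6% of copies were higher too and 6.5% were lower, beside 21.1% and 16.6% over all copies of such loci. When the other copy was lower, 37.95% were lower and 8.3% higher. The log2 folds of 2 copies had a Pearson r of 0.36 and a Spearman rho of 0.41 over the 4950 loci, a description across loci that share libraries and, for close copies, reads. Over the 1945 loci where each copy had 200 or more reads, r was 0.48 and rho 0.52. The copies differed by a median of 0.83 on the log2 scale. With 3 copies, all were higher at 77 loci, all lower at 50 and opposite calls were present at 111. With an assumed BCV of 0.4, 88 of the 2-copy loci had both copies called the same way and 6 had opposite calls.

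**Figure D3:**
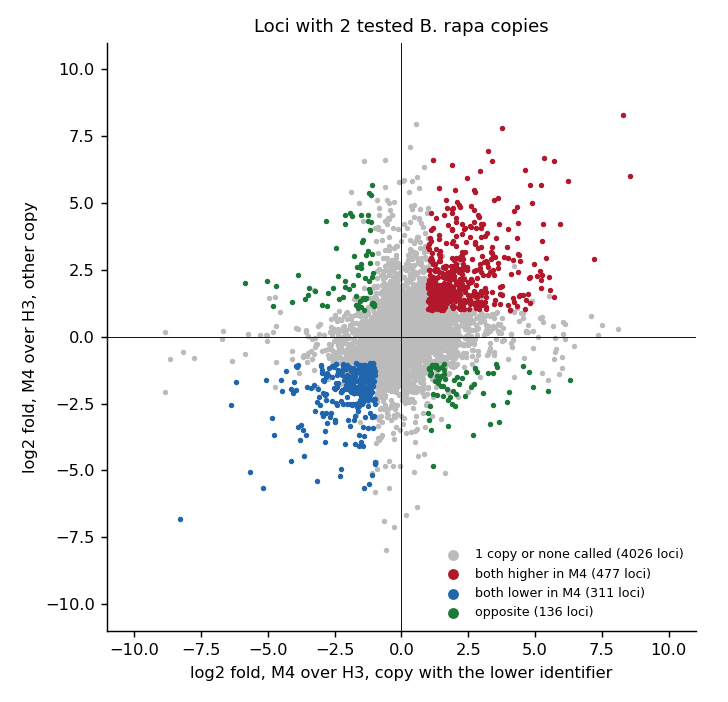
Log2 fold of M4 over H3 of the copy with the lower identifier (x axis) against the other copy (y axis) at the 4950 loci with 2 tested copies. Loci with both copies higher (red, 477), both lower (blue, 311), opposite calls (green, 136) and all others (grey) are shown, and more loci lie in the quadrants of like sign than in those of unlike sign.

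Loci with 3 or more copies, all called the same way, included some of the functions named above. They were chosen for that agreement and are given in the order of the weakest copy's bound. *PAR1* had 201, 223 and 401 reads in M4, against 1, 0 and 5 in H3. The 3 copies of *SWEET11*, a sucrose exporter, had 22, 9 and 5 reads in M4, against 610, 362 and 132 in H3, and their sum gave a fold of 0.0263 (interval 0.0183 to 0.0366). *HSP17.6II* had 517, 132 and 283 reads in M4, against 26, 3 and 0 in H3.

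*XTH24* had 1328, 6139 and 13285 reads in M4, against 14120, 31831 and 86372 in H3. *RCA*, the activase of Rubisco, had 1262, 490 and 1189 in M4, against 6273, 3172 and 6119 in H3, with copy folds of 0.162, 0.1246 and 0.157. *BXL1*, a wall xylosidase, had 4 copies lower, with summed reads of 5098 in M4 against 39259 in H3 (fold 0.105, interval 0.102 to 0.108). *RPP8* had 4, 0 and 1 reads in M4, against 61, 316 and 23 in H3. *TUB3*, a beta-tubulin, had 4 copies higher, with summed reads of 9900 in M4 against 1283 in H3 (fold 6.22, interval 5.87 to 6.60).

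Opposite calls within a locus were found at 280 loci. *RD22*, a dehydration-induced gene, was the clearest by reads: Bra020508 on A02 had 4781 reads in M4 against 190 in H3 (fold 20.3, interval 17.5 to 23.58), and Bra009854 on A06 had 1736 in M4 against 9853 in H3 (fold 0.142, interval 0.135 to 0.15). Its summed reads, 6523 in M4 against 10044 in H3, gave a fold of 0.524 and no call. For *PXMT1*, a methyltransferase, 2 copies on A07 had 100 and 35 reads in M4 and none in H3, and the copy on A06 had 2 in M4 against 80 in H3. The *TRM12* copies Bra027654 and Bra027794, both on A09, had 734 and 166 reads in M4, against 31 and 601 in H3, and the sum over 3 copies gave a fold of 1.15.

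The same pattern was seen at 5 more loci with a name. *XND1*, a regulator of xylem, had 82 reads in M4 against 0 in H3 in one copy, while the others had 14 and 3 in M4, against 46 and 35 in H3 (fold of the sum 0.986). *MBP2*, a myrosinase-binding protein with 10 tested copies, had one copy at 563 reads in M4 against 12 in H3 and another at 261 in M4 against 1766 in H3. For *CYP71B26*, a P450, 1 copy had 1045 reads in M4 against 168 in H3 and the other 8 in M4 against 100 in H3. For *RALFL22*, a signalling peptide, 42 in M4 against 0 in H3 stood beside 38 in M4 against 168 in H3. *FAR4*, of fatty alcohol synthesis, had 423 in M4 against 4143 in H3 in its main copy and 27 in M4 against 0 in H3 in another, so that its sum stayed lower (fold 0.0893).

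Summed over the copies of a locus, 3149 loci were called higher and 2647 lower of 16264 tested, which is 35.6% called. Of the 280 loci with opposite calls, the sum was not called at 174, higher at 29 and lower at 77. At 2854 loci with 2 or more copies, some but not all were called and all those calls had one direction, and the sum was called at 1233 of them (43.2%). The copy with the most reads differed between M4 and H3 at 1043 of 6397 loci with 20 or more reads in each library (16.3%), and at 105 of these the leading copy held at least 66.7% of the reads in each library. For *RD22* the leading copy held 73.4% of the reads in M4 (Bra020508) and 98.1% in H3 (Bra009854). For *HB2* it was Bra034122 with 97.8% in M4 and Bra029847 with 84.3% in H3.

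The change was spread over all 10 *B. rapa* chromosomes, and A05 had the highest share of lower calls, a chromosome singled out after the values of all 10 were seen. The share of tested genes called higher lay between 18.7% on A10 (interval 17.0% to 20.6%) and 23.65% on A07 (21.97% to 25.4%). The share called lower lay between 14.9% on A04 and 17.62% on A01 on every chromosome but A05, where it was 21.99% (520 of 2365 genes, interval 20.3% to 23.7%). The median log2 fold was -0.08 on A05 and between 0.02 and 0.11 on the others. These intervals treat genes as independent, which neighbouring genes need not be. A05 had the highest share of lower calls among the 10 chromosomes in the main result and in each of the 6 alternatives run for it, with 14.9% beside at most 11.3% on another chromosome under total reads, and 6.3% beside at most 4.78% with an assumed BCV of 0.4.

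**Figure D4:**
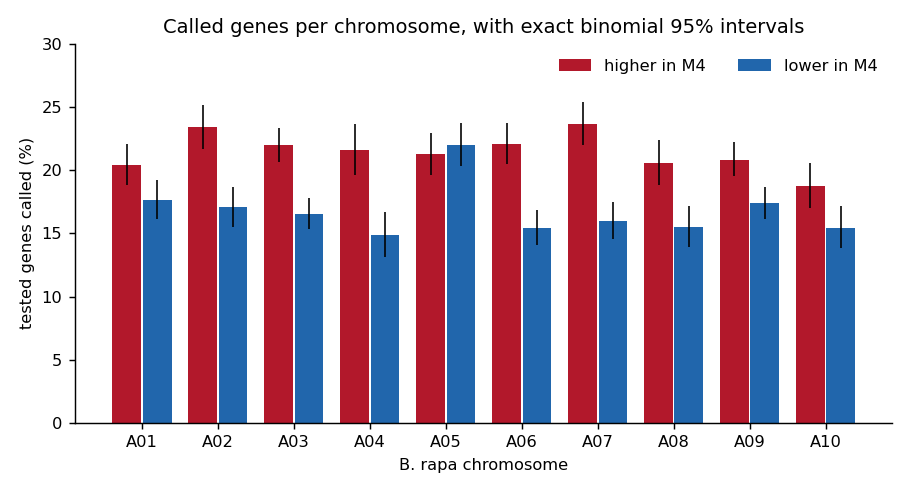
Percent of tested genes (y axis) called higher (red) and lower (blue) in M4 on each *B. rapa* chromosome (x axis), with exact binomial 95% intervals of counting error as error bars. A05 has the highest lower share, 21.99%, and the other chromosomes lie between 14.9% and 17.62%.

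Their copies on other chromosomes had a higher median than the genes of A05. For 1357 A05 genes with a tested copy elsewhere, the median log2 fold was -0.10, that of the mean of their copies was 0.09, and the median of the difference was -0.18. On the other chromosomes this median difference lay between -0.08 and 0.12, with the highest on A01. In the petals of *O. violaceus*, which are other libraries, 10.8% of the A05 genes were higher and 9.57% lower in OvP against OvW.

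The sheet gives no positions, but the identifiers run along assembled scaffolds. Neighbouring identifiers had Arabidopsis loci within 500 locus numbers of each other in 74.5% of cases. Medians were taken over 492 windows of 50 neighbouring tested genes, and 465 lay within 0.5 of the median of all genes on the log2 scale, 12 at least 0.5 below and 15 at least 0.5 above. The lowest window, with a median of -0.79, was on A05 (Bra029783 to Bra029848, 21 genes lower and 5 higher) and the highest, 0.99, was on A02 (Bra007957 to Bra008042, 23 higher and 6 lower). On A05, 24 of the 27 windows from the 20th to the 46th had a median below 0, while most windows before them were above it.

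**Figure D5:**
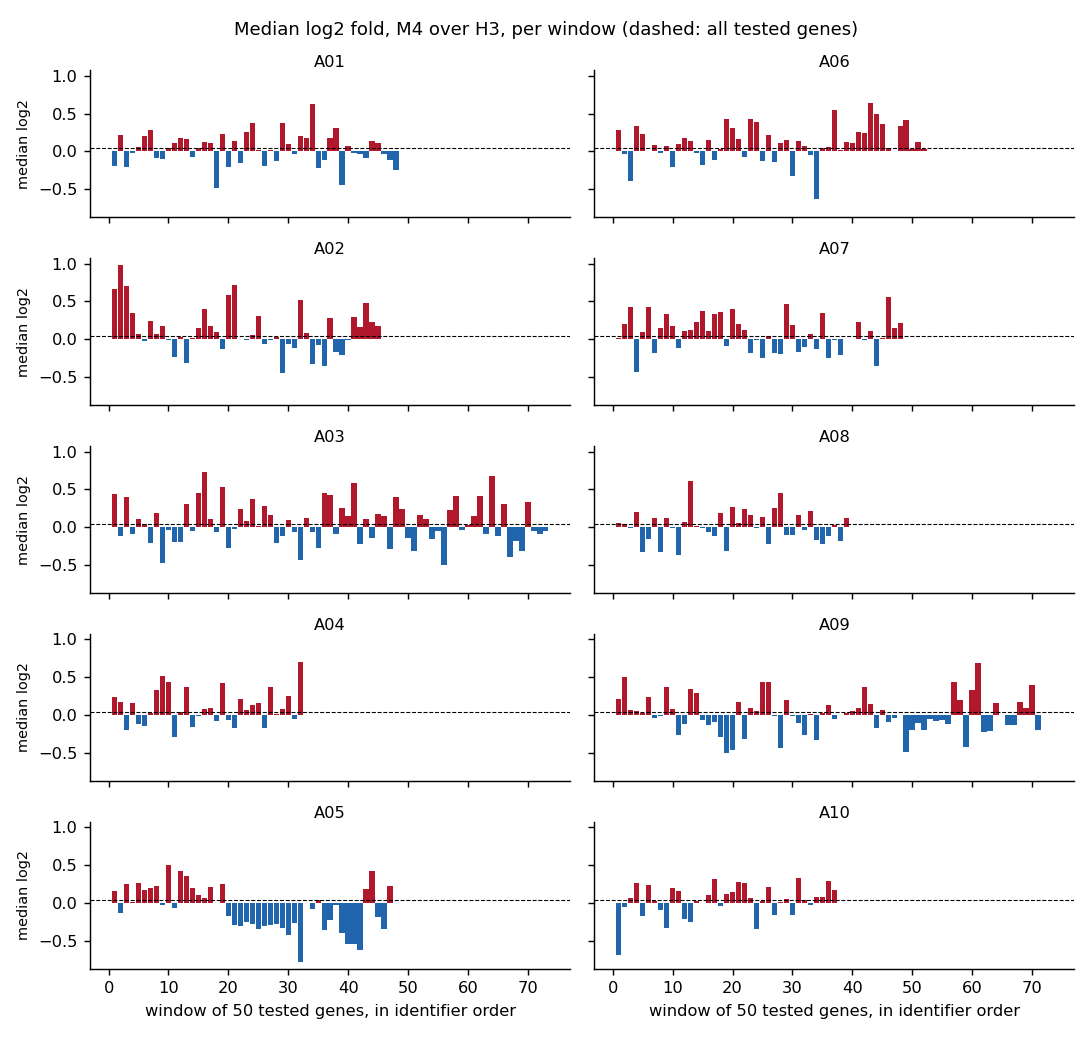
Median log2 fold of M4 over H3 (y axis) in windows of 50 tested genes along the identifier order (x axis, window number) for chromosomes A01 to A10, in red above 0 and blue below, with the median of all genes dashed. A05 shows a long run of windows below 0 from the 20th, and A02 starts with high windows.

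The lowest window held *CDC48A*, an ATPase of protein turnover, with 7161 reads in M4 against 24117 in H3 (fold 0.239), *SMR1*, a cell cycle inhibitor, with 1841 in M4 against 13488 in H3 (fold 0.11), and *PAL4*. The *HB2* copy Bra029847 lies in it too. The next 2 lowest windows were on A10 and A05. In the one on A10 the gene with the most reads went against the window, *ATMS1*, a methionine synthase, with 14433 reads in M4 against 1821 in H3 (fold 6.39), beside *CAX7*, a cation exchanger, with 1221 in M4 against 2971 in H3. In the one on A05, *EIN3*, *PP2CA* and *AL2* had the most reads and none was called.

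The highest window, on A02, held *PATL1*, a protein of the forming cell plate, with 5595 reads in M4 against 1746 in H3 (fold 2.58), *RSW10*, a ribose phosphate isomerase, with 651 in M4 against 13 in H3 (fold 40.4), and *JAZ6*, with 631 in M4 against 55 in H3 (fold 9.25). The next 2, on A03 and A02, held genes of both directions: *ACP1*, an acyl carrier protein, had 9932 in M4 against 1524 in H3 (fold 5.26), and the plastid protease *FTSH11* had 1189 in M4 against 2977 in H3 (fold 0.322). No window moved as a whole, since even the lowest had 13 of its 50 genes above 0 and the highest 17 below.

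Identifiers were also joined into runs without a jump of over 50, a step chosen after the windows had been seen, and 111 runs held 40 or more tested genes. Of the 7 runs with the lowest medians 6 were on A05, with medians from -0.71 (Bra034679 to Bra034868, 132 genes) to -0.30 (Bra022157 to Bra022468, 189 genes). In 5 of these 6, at least 89.4% of the genes matched chromosome 3 of Arabidopsis. Together they held 827 genes, of which 31.0% were lower and 15.5% higher, beside 17.2% and 24.4% of the other 1538 genes of A05. For the 480 of the 827 with a copy on another chromosome, the median difference from the copies was -0.49. The largest run of A05, Bra004411 to Bra005655 with 791 genes, had a median of 0.18. These runs were chosen by their medians, so the values are a description.

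Genes read in one library alone were few. With 20 or more reads in M4, 158 genes had none in H3, and with 20 or more in H3, 54 had none in M4. Of the 158, 132 (83.5%) had at least 1 read in OvP or OvW, beside 94.9% of all tested genes, and of the 54, 42 (77.8%) did. Over all tested genes with 0 reads in one library, A02 held the most with 0 in H3 (42 of its 2299 tested genes). A05 held the most with 0 in M4 (24 of 2365). These are counts from chromosomes with unlike numbers of tested genes. A04 had 28 of 1636 at 0 in H3, a share near that of A02, and A03 had 37 of 3677 at 0 in H3 and 16 in M4.

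The petals of *O. violaceus*, compared as OvP against OvW, are a separate pair of libraries with 1850787 and 2040729 reads on *B. rapa* genes. Most reads of these libraries did not map to *B. rapa*, per the study, and are not covered here. Of 17341 genes tested in both pairs, 9.45% were higher and 9.47% lower in OvP. Among the 3628 that were higher in M4, 14.8% were higher and 7.22% lower in OvP, and among the 2827 lower in M4, 8.49% were higher and 16.5% lower. The 10886 not called between M4 and H3 had 7.92% higher and 8.396% lower. Most genes called between M4 and H3 were therefore not called in *O. violaceus*. Both red or purple libraries are set against paler ones here, but the species, the depth and the colour differ in other ways too, and their part was not tested.

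By list, photosystem genes had 52 of 69 lower and none higher in OvP, and Calvin cycle and photorespiration genes 29 of 49 lower and 1 higher. Cytosolic ribosomal proteins had 16 of 47 higher and 1 lower, heat shock genes 8 of 13 higher and none lower, and auxin-responsive genes 12 of 45 lower and none higher. Jasmonate genes had 6 of 44 higher and 6 lower, cutin and wax genes 10 of 47 higher and 8 lower, and aquaporins 8 of 25 higher and 4 lower. The difference between the pairs was not tested.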

How the data were processed

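Per the labels and the study's methods, polyA directional libraries were sequenced as 100-nt read pairs, and the authors used TopHat with the *B. rapa* genome, allowing up to 2 mismatches. The submitters' processing notes also name Cufflinks, Cuffdiff and DESeq. For versions, the sources used here give none. The deposited sheets hold counts of reads per gene (37441 genes) and, from the authors, RPKM values (37568 genes), and their own comparison columns were not used. Genes with 10 or more reads over M4 and H3 were scaled by TMM and tested with binomTest of edgeR 4.0.16 in R 4.3.3, with log2 folds at a prior count of 0.5. With 1 library a group the p-value compares libraries, and intervals and the floor of 3 reads cover counting error only. The depth, 15507389 reads in M4 and 16447021 in H3, puts the floor at 0.169 CPM in M4 and 0.209 CPM in H3. Lists were matched by Arabidopsis locus or symbol, and 19 loci whose symbols name other proteins were left out. Named genes are the 12 highest and 12 lowest by the interval bound nearest to 1, the 3 strongest called members a list in each direction, the 8 loci leading in opposite and in like calls, and the 3 genes with the most reads in the 3 highest and 3 lowest windows. Genes given for families and leading copies, the other copies set beside a named one, and *PI*, *AP3*, *CYP77A6* and *KCS1*, were chosen after values were seen. Members and lists were chosen with earlier results of these data known. The code was tested on simulated data. Alternatives were other scalings (DESeq2 1.42.0 size factors, total reads, the median), read minimums, an assumed BCV, folds from RPKM and other window sizes. Figures were drawn with matplotlib 3.10.9, and statistics run in Python 3.11.15 with SciPy 1.17.1, pandas 2.3.3 and numpy 2.4.6. One member of the named lists is not reported here.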

Additional observations from a re-analysis of the deposited data

How the results depend on the processing

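No paired analysis was possible because each material has 1 library. With total reads, 7703 genes were called higher and 2709 lower, the share of A05 genes called lower was 14.9%, and the median of the phenylpropanoid list was 0.15. Folds from RPKM gave 6957 higher and 2960 lower, against 5477 and 4323. A minimum of 1 read gave 16.7% lower on A05 and 10.7% higher in OvP among genes higher in M4 (main 14.8%), and a minimum of 50 reads gave 19.3% for the second. An assumed BCV of 0.4 left 2465 calls, 1518 higher and 947 lower, 242 calls over the lists (main 672), 88 pairs of copies called the same way, 6 opposite pairs and 6.3% lower on A05. Windows of 25 genes gave 160 medians at least 0.5 from that of all genes, and windows of 100 genes gave 5, beside 27 in the main result. Of 215 named genes, 56 were no longer called with an assumed BCV of 0.4, 8 with total reads, 7 with a BCV of 0.2, 5 with RPKM and 1 each with DESeq2 size factors and with the median at 0. The spread between plants of one line was not measured, and the cause of these changes was not tested.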
